A study of Canis lupus familiaris with 51 samples.

Results

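The data describe 10 genes of glucose uptake and glycolysis in 51 spontaneous cutaneous mast cell tumors (MCTs) of dogs, among 10512 gene symbols on the array. Every probe that carries the gene name or description of SLC2A1, HK1, HK2, PFKP, PFKL, ALDOA, PGK1, ENO1, PKM2 or LDHA was taken, which gave 18 probes of 43603. By gene name 8 of the 10 were found, and ALDOA and PKM2 by the description of probes filed under a transcript identifier. The 3 probes filed under KIF2A whose description carries HK2 in brackets were not counted as HK2.

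Each tumor was measured once, on 1 one-color array, from a piece of the central tumor mass, so that every value holds the RNA of all cells in that piece, and fewer cells of a type and less RNA per cell cannot be told apart. The reference tumors were 5 undifferentiated MCTs, of high Kiupel grade with a high mitotic index, and 13 differentiated MCTs, of low Kiupel grade with a low mitotic index. The other 33 tumors were classed by the study as 7 undifferentiated and 26 differentiated from 13 marker genes measured on these same arrays, none of which is among the 10 genes. The dogs were 3 to 14 years old, with 30 females, 19 males and 2 of unstated sex, and came from many breeds. The labels name no treatment for any tumor. Of 11 listed mast cell markers 5 were on the array, and these (KIT, CMA1, MS4A2, FCER1A and SLC18A2) were well above background on all 51 arrays.

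Glycolysis splits glucose into pyruvate in the cytoplasm and yields ATP without oxygen. Glucose enters through transporters such as GLUT1, is trapped by hexokinase, is committed to the pathway by phosphofructokinase and leaves it as pyruvate, which lactate dehydrogenase can turn into lactate. Many tumors use this route heavily, and several of its genes are known targets of the hypoxia-inducible factors.

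Probes are 60 bases long and are numbered within a gene by falling mean level. Positions are those of the array design, whose genome build is not given in the sources used here. The SLC2A1 probes lie on chromosome 15, at chr15:3492767-3492826 and chr15:3491838-3491897, plus strand, and the HK1 probe at chr4:23721721-23721780. The HK2 probes lie 67 bases apart on the minus strand of chromosome 17, at chr17:51358600-51358659 and chr17:51358474-51358533. The PFKP probe spans 349 bases at chr2:35065011-35065359, minus strand, so that it crosses an intron. The sequences below belong to SLC2A1 and PFKP, the genes called in the predicted tumors, and to ENO1 and PKM2. The ENO1 and PKM2 genes passed an adjusted p of 0.05 there in limma at probe 1. For PKM2 the sequence is that of probe 2, not of the probe that gave this result. PGK1 also passed and is not among the sequences printed here. Each is given 5′ to 3′ as listed in the files.

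SLC2A1 probe 2: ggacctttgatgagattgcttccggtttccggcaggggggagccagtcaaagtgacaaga
PFKP probe 1: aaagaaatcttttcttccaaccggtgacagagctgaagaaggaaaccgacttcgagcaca
ENO1 probe 1: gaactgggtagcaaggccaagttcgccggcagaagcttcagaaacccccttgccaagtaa
PKM2 probe 2: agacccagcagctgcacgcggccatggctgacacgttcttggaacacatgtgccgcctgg

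For HK2, whose probes disagreed, the first 30 bases of each are shown so that the stretches can be told apart. They lie at chr17:51358630-51358659 for probe 1 and chr17:51358504-51358533 for probe 2.

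HK2 probe 1 start: aaatcagaagggacttcctctggttccccc
HK2 probe 2 start: ctgtctgtggatacccactttgagttcaat

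The other probes lie on chromosome 31 (PFKL, chr31:40514222-40514281 and chr31:40506023-40506683), chromosome 6 (ALDOA, chr6:21095106-21095249), chromosome X (PGK1, chrX:63455008-63455066 and chrX:63440346-63443523), chromosome 5 (ENO1, chr5:65299745-65299804 and chr5:65304613-65305097), chromosome 30 (PKM2, chr30:38711785-38711844 and chr30:38727326-38727385) and chromosome 21 (LDHA, chr21:44031425-44031484, chr21:44031436-44031495 and chr21:44031130-44031189). LDHA probes 1 and 2 share 49 bases and are not independent readings. ENO1 probe 2 and LDHA probes 2 and 3 are listed with more than 1 RefSeq model. These may be forms of the same gene or a near-identical copy that adds to the signal, which was not tested. The PKM2 probes cannot be assigned to the M1 or the M2 form of the enzyme.

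Levels are log2 intensities after quantile normalization over the 51 arrays. A level is compared only between tumors at the same probe, not between probes. All 18 probes were well above background on all 51 arrays, except HK2 probe 2 (49 arrays) and PFKL probe 2 (50 arrays), and no reading was saturated. The share of probes well above background ranged from 59.4% to 74.8% per array. Classes were compared with limma, and a probe was called at a Benjamini-Hochberg adjusted p under 0.01 over all 43603 probes with at least a 2-fold change. A wider count uses an adjusted p under 0.05 with no limit on the fold. The numbers below use probe 1 for a gene, unless another probe is named.

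Undifferentiated MCTs had higher levels of most of the 10 genes, and few of the differences were past the call limits. Between the reference tumors, 9 of 10 genes were higher in the undifferentiated class and 0 were called, where 1.85% of all probes were called in either direction and 0.975% higher. Without adjustment, limma gave a p under 0.05 for 4 of the 10 genes, against 23.5% of all probes. Past an adjusted p of 0.05 were 2 genes, PGK1 and LDHA, against 8.07% of all probes. Between the predicted tumors, 10 of 10 genes were higher and 2 were called, SLC2A1 and PFKP, against 1.0% of all probes in either direction and 0.741% higher, and 5 genes passed 0.05 against 5.86%. Without adjustment 6 of the 10 were under 0.05, against 19.4%. The median change of the 10 genes was 0.49 in the reference and 0.40 in the predicted tumors, and that of all probes was 0.04 and -0.04. Of all probes 54.5% were higher in the undifferentiated class in the reference tumors and 43.2% in the predicted tumors. No member probe separated the classes without overlap, as 1.33% of all probes did in the reference tumors, 0.186% in the predicted tumors and 0.124% in all tumors.

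The fit of all 51 tumors holds the same samples as both of these and is not independent of them. In it, 10 of 10 genes were higher, 1 gene was called (SLC2A1) against 2.36% of all probes in either direction and 1.29% higher, 6 genes passed 0.05 against 14.4%, and 8 were under 0.05 without adjustment against 26.0%. Of all probes 47.9% were higher in the undifferentiated class in this fit. By probe, 1 of 18 was called in the reference tumors, 4 of 18 in the predicted tumors and 3 of 18 in all tumors, every one of them higher in the undifferentiated class.

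**Figure D1:**
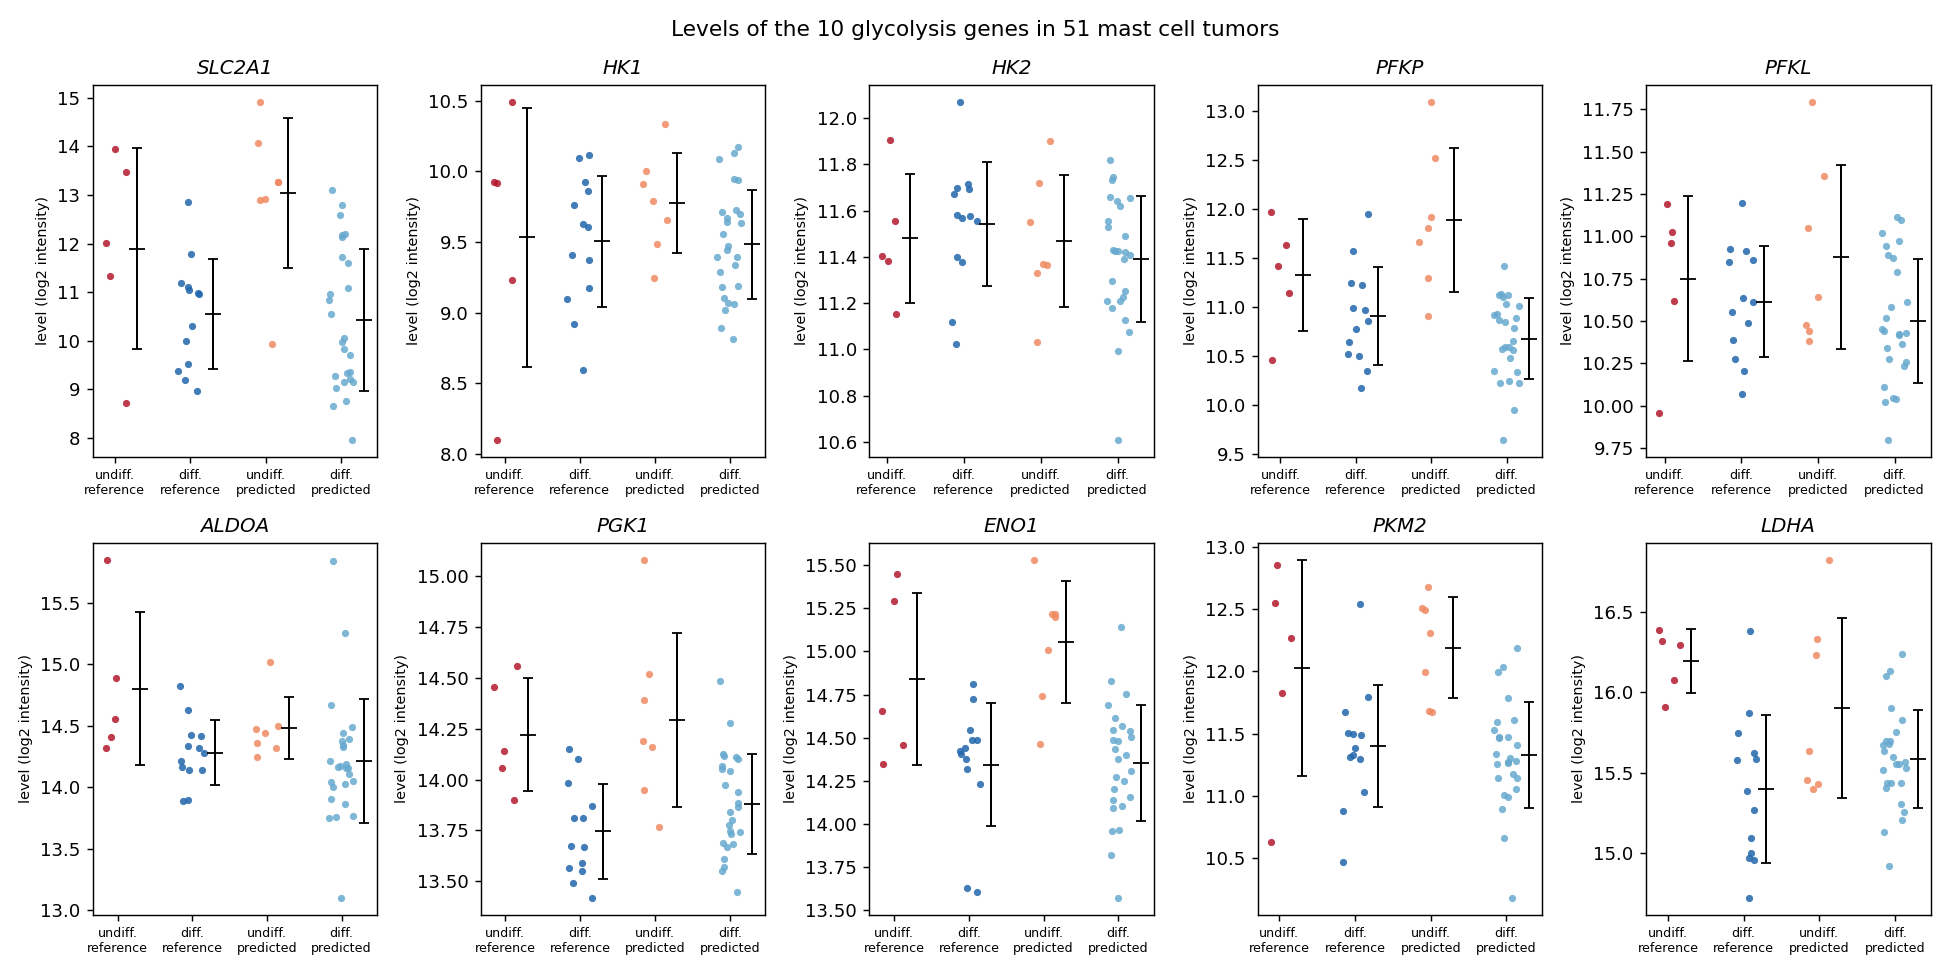
Level of each gene at probe 1 (y axis, log2 intensity) in each of the 51 tumors (points), by group (x axis), with the mean and SD beside the points. SLC2A1 and PFKP stand higher in most undifferentiated tumors, and in every panel the undifferentiated and differentiated points overlap.

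**Figure D2:**
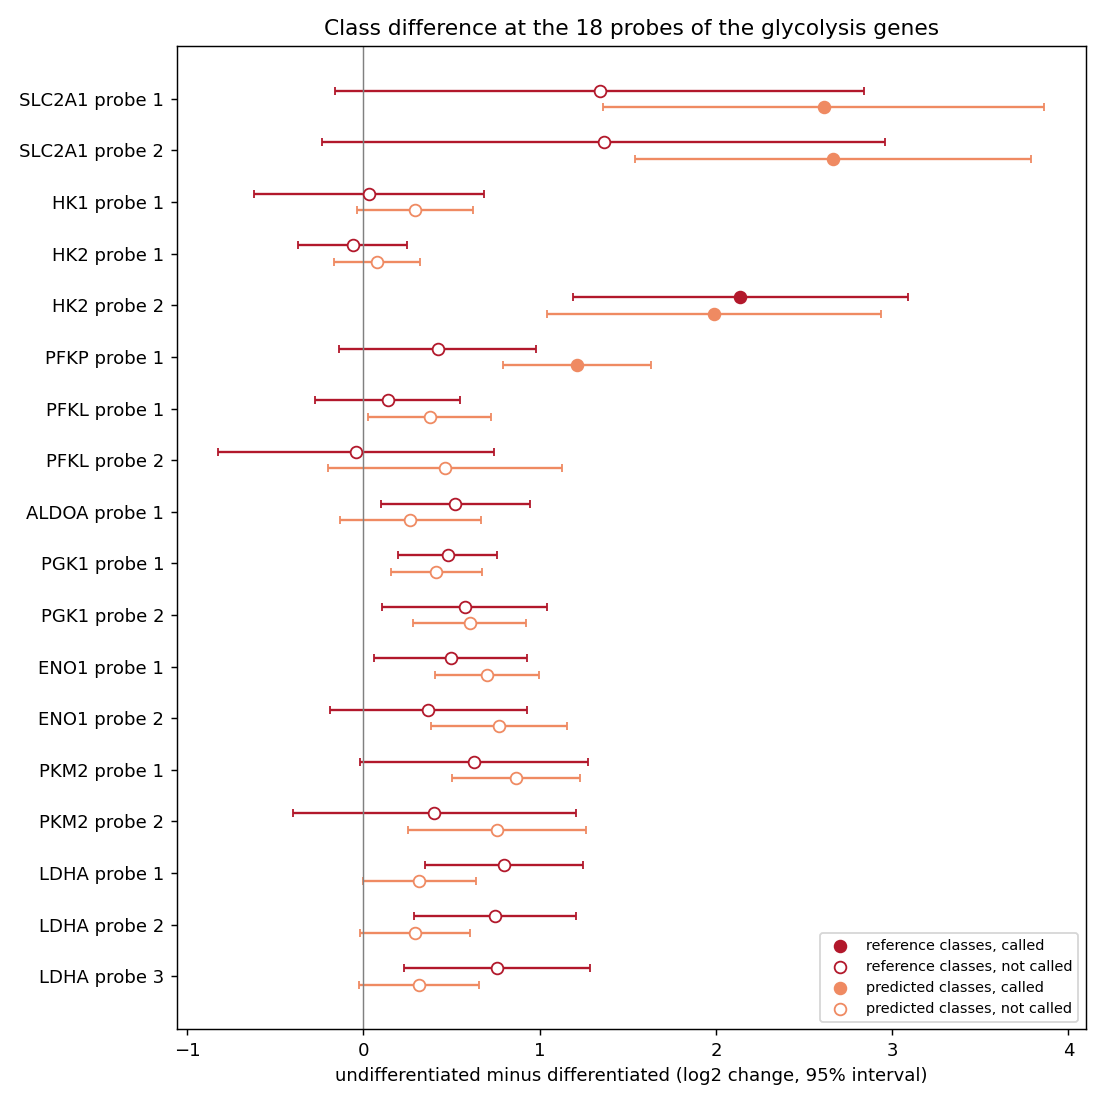
Undifferentiated minus differentiated level (x axis, log2 change with its 95% confidence interval) at each of the 18 probes (y axis), in reference tumors and in predicted tumors, with called probes filled. The SLC2A1 and HK2 probe 2 intervals are the widest and farthest to the right, and HK2 probe 1 lies near 0.

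SLC2A1 encodes GLUT1, the transporter that lets glucose into most cells. In the 5 undifferentiated reference tumors its level was 13.94 in LM0, 13.48 in T57, 12.01 in T73, 11.32 in T90 and 8.73 in T9, and in the 13 differentiated reference tumors it ran from 8.96 over a median of 10.96 to 12.85. LM0 and T57 lay above every differentiated reference tumor, and T9 lay below all of them. The difference was 1.34 (SE 0.71, 95% interval -0.16 to 2.84), with an adjusted p of 0.27 in limma, and was not past the spread between these tumors. Without T9 it was 2.13, the highest of the 18 values with 1 tumor left out, and the lowest was 0.83.

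SLC2A1 stood further apart in the predicted classes. The 7 undifferentiated tumors ran from 9.94 over a median of 13.27 to 14.92, and the 26 differentiated tumors from 7.97 over 10.01 to 13.10. T114, T104, T80 and T77 lay above every differentiated predicted tumor, T49 and T132 lay among the highest of them, and T115 lay just under their median. SLC2A1 was up-regulated 6.11-fold, by 2.61 (SE 0.61, adjusted p = 0.00867 in limma), and probe 2 gave 2.66 (SE 0.55, adjusted p = 0.00313). The call at probe 1 sat close to its limit: it was lost without any of T49, T77, T80, T104, T114 and T132, with an adjusted p of at most 0.0492, and with the slide as a fixed block the change was 1.87 (adjusted p = 0.20). In the all-tumor fit the change was 2.11 (SE 0.48, adjusted p = 0.00143), and it stayed called with each undifferentiated tumor left out.

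HK1 and HK2 encode hexokinases, which phosphorylate glucose on entry, HK1 in most tissues and HK2 mainly in muscle, fat and many tumors. HK1 did not differ past the spread in either comparison: it was 0.03 higher in undifferentiated reference tumors (95% interval -0.62 to 0.68) and 0.29 higher in undifferentiated predicted tumors (-0.04 to 0.62). HK1 was lowest of all 51 tumors in T9, at 8.10, and highest in LM0, at 10.49, both of the undifferentiated reference class.

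The HK2 probes gave different results. At probe 1 the classes overlapped: 11.15 to 11.90 in the 5 undifferentiated and 11.02 to 12.07 in the 13 differentiated reference tumors, with a difference of -0.06 (95% interval -0.37 to 0.25, adjusted p = 0.839 in limma). At probe 2 the undifferentiated reference tumors read 10.54 in T57, 8.57 in LM0, 7.28 in T73, 7.18 in T90 and 6.59 in T9, and the differentiated ones ran from 5.15 over 5.96 to 6.67. All but T9 lay above the highest differentiated reference tumor. The probe 2 difference was 2.14 (SE 0.45), or 4.40-fold, with an adjusted p of 0.00756. It kept its direction in all 34 alternatives, and in 20 of them, among them the one without LM0 (adjusted p = 0.0272), the call was lost.

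The predicted tumors gave the same picture at HK2. Probe 1 ran from 11.03 to 11.90 in the undifferentiated and from 10.61 to 11.82 in the differentiated tumors and changed by 0.08 (adjusted p = 0.791 in limma). Probe 2 ran from 6.50 over a median of 8.42 to 10.45 in the undifferentiated tumors and from 4.95 over 6.47 to 8.69 in the differentiated tumors. T114, T49 and T132 lay above every differentiated predicted tumor at probe 2, and T115 lay near the differentiated median. The probe 2 change was 1.99 (SE 0.47, adjusted p = 0.00831), and 2.05 (adjusted p = 1.58e-05) in all tumors. The call in the predicted tumors was lost in 12 of 22 alternatives, among them those without T114 (1.66, adjusted p = 0.0537), with the slide as a fixed block (adjusted p = 0.0393) and with sex and age (adjusted p = 0.0657). Across the 39 differentiated tumors the readings of the HK2 probes went together only weakly (r = 0.16, rho = 0.18, adjusted permutation p = 0.326 and 0.285), while the readings of the SLC2A1 probes nearly coincided (r = 0.98, rho = 0.98).

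**Figure D3:**
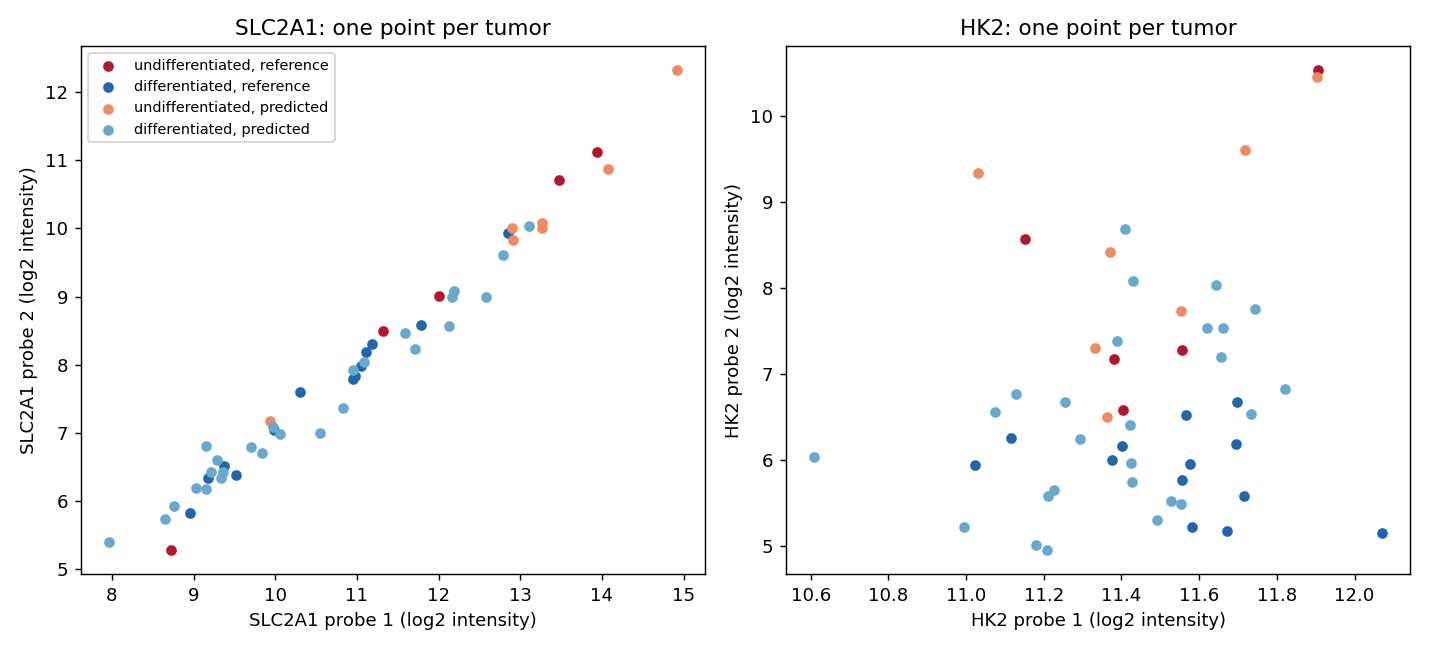
Level at probe 2 (y axis) against level at probe 1 (x axis, both log2 intensity) of SLC2A1, left, and HK2, right, with 1 point per tumor colored by group. The SLC2A1 points lie on a line, and the HK2 points spread from 4.95 to 10.54 at probe 2 over a narrow range of 10.61 to 12.07 at probe 1.

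PFKP and PFKL encode the platelet and liver types of phosphofructokinase, the committing step of glycolysis. PFKP read 11.97 in T57, 11.63 in T73, 11.42 in T90, 11.15 in LM0 and 10.46 in T9, against 10.17 to 11.96 with a median of 10.86 in the differentiated reference tumors, a difference of 0.42 (SE 0.27, adjusted p = 0.359 in limma). T57 alone lay above the differentiated reference tumors, by a narrow margin. Between the predicted classes PFKP ran from 10.91 over a median of 11.80 to 13.10 in the undifferentiated class and from 9.65 over 10.72 to 11.42 in the differentiated class. T49, T114, T80, T132 and T77 lay above every differentiated predicted tumor, with T104 at 11.30 and T115 at 10.91 within their range. PFKP was up-regulated 2.31-fold there, by 1.21 (SE 0.21, adjusted p = 0.000401), and it stayed called with each undifferentiated predicted tumor left out. The call was lost in 3 of 23 alternatives: with the slide as a fixed block (adjusted p = 0.0393), with sex and age (adjusted p = 0.0123) and with the neutrophil level described below.

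The PFKP change was 0.42 in the reference and 1.21 in the predicted comparison. The test of that gap, as an interaction in limma, gave -0.79 (95% interval -1.47 to -0.11), with an unadjusted p of 0.0231 and an adjusted p of 0.293, and 0 of the 10 genes passed 0.05, where 0.0963% of all probes did. Without adjustment 1 of the 10 was under 0.05, against 13.7% of all probes. For SLC2A1 the gap was -1.27 (95% interval -3.22 to 0.68). PFKL differed less, by 0.14 (adjusted p = 0.721) in the reference and 0.38 (adjusted p = 0.215) in the predicted tumors. Its second probe gave -0.04 and 0.46, and neither passed the test.

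ALDOA encodes the aldolase of muscle and most other tissues, which splits the 6-carbon sugar, and it did not pass the test in any comparison. It read 15.85 in T73 and from 14.32 to 14.89 in the other 4 undifferentiated reference tumors, against 13.88 to 14.82 in the differentiated ones. Its difference of 0.52 (SE 0.20, adjusted p = 0.12 in limma) fell to 0.26 without T73. Between the predicted classes it was 0.27 (adjusted p = 0.524), and the highest differentiated predicted tumor read 15.84.

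PGK1 encodes phosphoglycerate kinase, the first step of the pathway that makes ATP. It read 14.56 in LM0, 14.46 in T9, 14.14 in T57, 14.05 in T90 and 13.90 in T73, against 13.42 to 14.15 with a median of 13.67 in the differentiated reference tumors. LM0 and T9 lay above that range, although T9 was low for SLC2A1, HK2 probe 2 and PFKP. The difference was 0.48 (SE 0.13, adjusted p = 0.0365 in limma) in the reference tumors and 0.41 (SE 0.13, adjusted p = 0.0444) in the predicted tumors. Both are under 2-fold, and probe 2 gave 0.57 and 0.60. The adjusted p rose to 0.108 without LM0 and to 0.161 without T49.

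ENO1 encodes the enolase of most tissues. It ran from 14.34 to 15.45 in the undifferentiated and from 13.61 over 14.42 to 14.81 in the differentiated reference tumors, a difference of 0.50 (SE 0.21, adjusted p = 0.151 in limma). LM0 and T57 were the reference tumors above the differentiated range. The 7 undifferentiated predicted tumors ran from 14.47 over a median of 15.20 to 15.53 and the 26 differentiated tumors from 13.57 over 14.39 to 15.14. T114, T49, T115 and T80 lay above every differentiated predicted tumor. The change was 0.70 (SE 0.15, adjusted p = 0.00313), a fold of 1.63 and so under the 2-fold limit, and probe 2 gave 0.77 (adjusted p = 0.0123).

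PKM2 is the array's name for the muscle-type pyruvate kinase gene, whose enzyme makes pyruvate and ATP. It ran from 10.63 over 12.27 to 12.85 in the undifferentiated and from 10.47 over 11.39 to 12.54 in the differentiated reference tumors, a difference of 0.63 (SE 0.31, adjusted p = 0.23 in limma). T9 held the lowest of these undifferentiated readings, and without it the difference was 0.98 (adjusted p = 0.0371). That was the highest of the 18 values with 1 tumor left out, and the lowest was 0.42. Between the predicted classes the ranges were 11.67 to 12.68 and 10.18 to 12.19, with medians of 12.31 and 11.29. The change was 0.86 (SE 0.18, adjusted p = 0.00296), a fold of 1.82. At probe 2 the undifferentiated and differentiated means were 8.58 (SD 1.27) and 8.18 (SD 0.47) in the reference tumors. They were 8.88 (SD 0.57) and 8.12 (SD 0.60) in the predicted tumors.

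LDHA encodes the subunit of lactate dehydrogenase that favors lactate formation. It read 16.39 in LM0, 16.32 in T9, 16.29 in T90, 16.08 in T57 and 15.91 in T73, against 14.72 to 16.38 with a median of 15.39 in the differentiated reference tumors. All 5 lay above the differentiated median, and LM0 alone lay above the highest differentiated tumor. The difference was 0.80 (SE 0.21, adjusted p = 0.0278 in limma), a fold of 1.74, and its adjusted p rose to 0.0709 without LM0. LDHA ran in the predicted tumors from 15.40 over 15.64 to 16.82 and from 14.92 over 15.56 to 16.24, and the change of 0.32 (adjusted p = 0.261) did not pass the test. The other 2 probes gave 0.75 and 0.76 in the reference tumors and 0.29 and 0.32 in the predicted tumors. The interaction for LDHA was 0.48 (adjusted p = 0.402), so that the comparisons were not shown to differ.

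Over the 10 genes, the same undifferentiated tumors were often the lowest. T9 was the lowest undifferentiated reference tumor for SLC2A1, HK1, HK2 probe 2, PFKP, PFKL and PKM2, and T115 was the lowest undifferentiated predicted tumor for SLC2A1, HK1, HK2 probe 2, PFKP, PGK1 and PKM2. For PGK1 and LDHA T9 was next to the highest of the undifferentiated reference tumors.

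The arrays were hybridized on 15 slides of up to 4 arrays and read in 9 scan sessions. The 4 sessions that held both classes of reference tumors had 4 undifferentiated tumors, 1 per session and without LM0, and 9 differentiated ones. In them HK2 probe 2 was higher in the undifferentiated class in 4 of 4, PFKP in 4 of 4 and SLC2A1 in 3 of 4. The session differences were 1.16 to 4.46, 0.28 to 0.96 and -0.23 to 2.59. LM0 shared its session with 1 differentiated predicted tumor, and the differences there were -0.11 at HK2 probe 2, 0.81 for PFKP and 3.97 for SLC2A1. Within the 4 sessions that held both classes of predicted tumors (7 undifferentiated and 14 differentiated), all 3 were higher in 4 of 4, by 1.52 to 3.77, 0.46 to 2.49 and 1.39 to 4.28. PGK1 and ENO1 were also higher in 4 of 4 sessions in both comparisons, and LDHA in 4 of 4 and 3 of 4.

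Markers of other cells moved with the classes. Of the neutrophil list, 5 of 7 markers were on the array, and their mean level ran from 7.88 to 14.19 in the undifferentiated and from 6.61 to 9.89 in the differentiated reference tumors, and from 9.16 to 13.71 and 6.92 to 11.53 in the predicted tumors. S100A8 and S100A9 were well above background on all 51 arrays, CSF3R on 47 and CXCR2 on 41. Of the 5, 4 were called higher in the predicted tumors (S100A9 by 4.74, S100A8 by 4.26, CSF3R by 2.25 and CXCR2 by 1.84) and 1 in the reference tumors (CXCR2 by 2.84). With the mean level of this list as a covariate, 0 of the 10 genes and 0 of the 18 probes were called in any of the comparisons. Over all 43603 probes this covariate left 3 calls in place of 437 in the predicted tumors and 382 in place of 1031 in all tumors, so that the loss there was array-wide, and gave 1431 in place of 805 in the reference tumors. The SLC2A1 change went from 2.61 to 1.12 (adjusted p = 0.892) in the predicted tumors, from 1.34 to -0.41 in the reference tumors and from 2.11 to 0.53 in all tumors. The PFKP change in the predicted tumors was 1.06 (adjusted p = 0.271) with it, while PGK1 and LDHA in the reference tumors were 0.70 and 1.08, with adjusted p of 0.0144 and 0.0203.

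Of the keratinocyte list, 7 of 12 markers were on the array, and its mean level fell into separate sets of tumors, with no tumor between 7.47 and 10.10. The undifferentiated reference tumors ran from 2.14 to 11.80 and the differentiated ones from 2.21 to 12.90, and the predicted tumors from 3.44 to 13.38 and 2.28 to 13.24. All 7 markers were lower in the undifferentiated reference tumors and higher in the undifferentiated predicted tumors, with medians of -2.26 and 2.50, and 0 were called. KRT5, KRT1, KRT10, DSG1, DSG3 and SFN were well above background on 29 to 44 arrays, and TP63 on 4. SLC2A1 differed between these sets, whose split lies at the widest gap of the list's own levels. The adjusted p below cover only the tests within the sets, not the choice of this gene and list after the data were seen. In the 20 differentiated tumors with a low keratinocyte level SLC2A1 ran from 7.97 over 9.35 to 10.96, and in the 19 with a high one from 9.28 over 11.59 to 13.10. Within the 19 high tumors SLC2A1 followed the list (r = 0.88, adjusted permutation p = 2e-05, rho = 0.80, adjusted permutation p = 0.00032), and r was 0.79 without the 2 tumors farthest from the median of the list, while within the 20 low tumors r was -0.16 (permutation p = 0.50).

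The undifferentiated tumors with a low keratinocyte level were LM0, T57, T49, T115 and T9, whose SLC2A1 levels were 13.94, 13.48, 12.91, 9.94 and 8.73. LM0, T57 and T49 lay above every differentiated tumor of low keratinocyte level. With the keratinocyte level as a covariate SLC2A1 stayed called in the predicted tumors, with a change of 1.95 (adjusted p = 0.00471), and PFKP with 1.22 (adjusted p = 0.000826). Neither covariate separates the cell content of a piece of tumor from the levels within its mast cells, and their part in the results was not tested further.

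**Figure D4:**
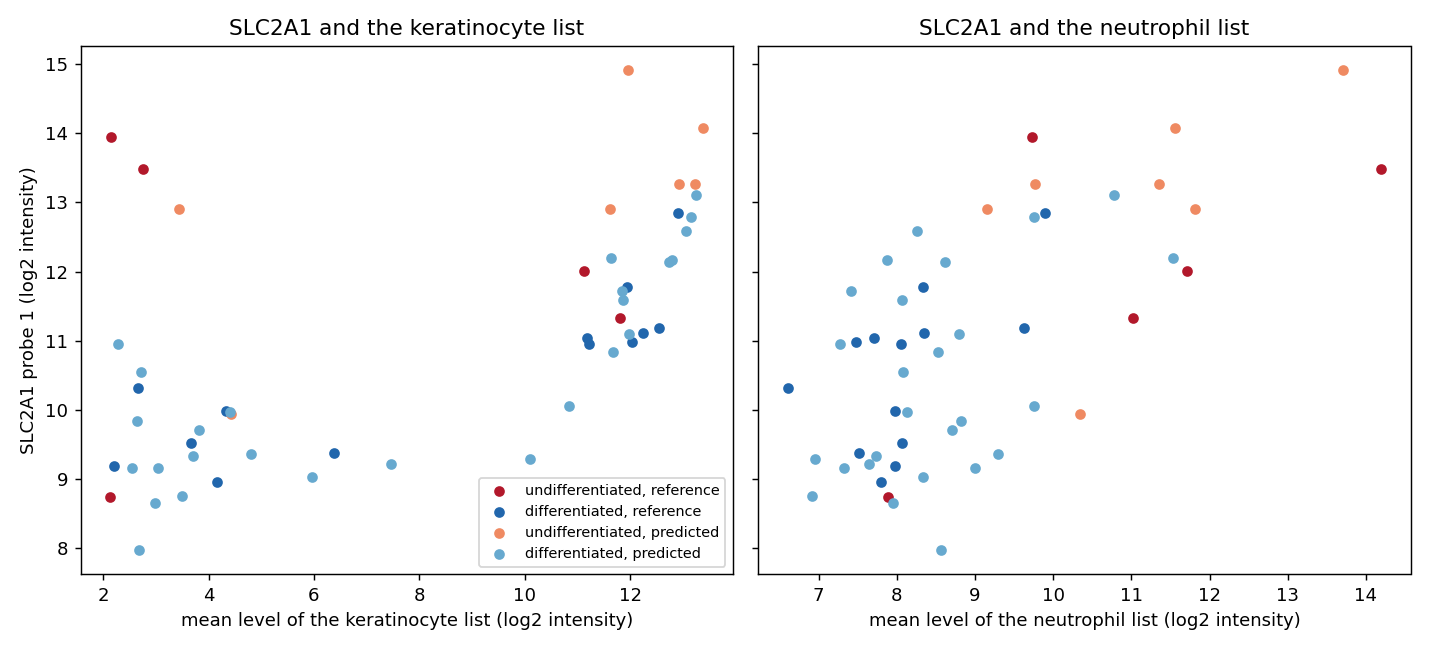
SLC2A1 level at probe 1 (y axis, log2 intensity) against the mean level (x axis, log2 intensity) of the keratinocyte list, left, and of the neutrophil list, right, with 1 point per tumor colored by group. The keratinocyte level leaves a gap between 7.47 and 10.10, and on the neutrophil axis the undifferentiated tumors reach from 7.88 to 14.19 and overlap the differentiated ones.

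Skeletal muscle markers were high in single tumors. Of 13 listed, 10 were on the array, and their mean level was 12.30 in LM0, 10.61 in T9 and 6.31 to 6.61 in the other undifferentiated reference tumors, against 5.78 to 7.26 in the differentiated reference tumors and up to 11.81 in the predicted tumors. Of the 10, 9 were higher and 1 lower in the undifferentiated reference tumors, with a median of 2.17. In the predicted tumors 8 were higher and 2 lower, with a median of 0.17. None of the 10 was called in the reference tumors. ACTA1 passed 0.05 there with a change of 0.37, and TNNT3, MYH2 and MB were well above background on 9, 15 and 21 arrays. Muscle expresses glycolytic genes at a high level, and its part in the LDHA, PGK1 and ENO1 values of LM0 and T9 was not tested. Tumors were left out only 1 at a time, so that LM0 or T9 always stayed in. Over the 18 tumors left out in turn the changes ran from 0.74 to 0.88 for LDHA, 0.39 to 0.56 for PGK1 and 0.34 to 0.62 for ENO1. The mast cell list ran from 13.57 to 15.83 and 14.01 to 15.18 in the reference tumors and from 12.66 to 15.59 and 13.75 to 15.83 in the predicted tumors, and 0 of its 5 markers were called. All 5 were lower in the undifferentiated predicted tumors, with a median of -0.73, while 3 were higher and 2 lower in the reference tumors, with a median of 0.14. The part of this shift in the SLC2A1 and PFKP changes was not tested. Of the fibroblast list, 10 of 10 were lower in the undifferentiated reference tumors, with a median of -0.97 and DCN past 0.05, and 6 were higher and 4 lower in the predicted tumors. Its mean level ran from 12.03 to 14.03 and 11.61 to 14.76 in the reference tumors. Of 8 macrophage markers CSF1R was called lower in the reference tumors (-1.92) and CD14 higher in the predicted tumors (1.70), and 0 markers of endothelium, T cells, eosinophils, erythroid cells or fat were called in either comparison.

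Of 24 further genes of glucose uptake, glycolysis and lactate export, 21 were on the array. In the reference tumors 16 of them were higher, 5 were lower and the median was 0.37. ENO3, the muscle enolase, was called (1.22, SE 0.20, adjusted p = 0.00119 in limma). The part of the high muscle levels of LM0 and T9 in the ENO3 change was not tested. GAPDH, the enzyme before PGK1, passed 0.05 with 0.61 (adjusted p = 0.0412). Of the 21, 12 were higher in the undifferentiated predicted tumors and 9 were lower, the median being 0.21, and 0 were called. GAPDH (0.53, adjusted p = 0.00379) and PGAM1, the mutase between PGK1 and ENO1 (0.57, adjusted p = 0.0325), passed 0.05. SLC2A3, a high-affinity glucose transporter, differed by 1.15 in the reference tumors (adjusted p = 0.127), and the lactate transporters SLC16A1 and SLC16A3 by 0.85 and 0.60 in the predicted tumors (adjusted p = 0.166 and 0.402). PFKFB4, a regulator of phosphofructokinase, was at -1.52 and -0.97 (adjusted p = 0.20 and 0.381).

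Routes that branch from glycolysis showed no called gene in either comparison. All 8 pentose phosphate genes were on the array; 6 were higher in the reference and 7 in the predicted tumors, with medians of 0.14 and 0.20, and RPIA, an isomerase, was the highest in the reference tumors (0.78, adjusted p = 0.094). Transketolase, TKT, was nearest to 0.05 in the predicted tumors (0.61, adjusted p = 0.0503 in limma). Of the glycogen genes 10 of 11 were measured, with medians of -0.34 and -0.08; in the predicted tumors 1 gene passed 0.05 in each direction, the higher one being the branching enzyme GBE1 (0.49, adjusted p = 0.0296). Of the genes of pyruvate use and gluconeogenesis 17 of 18 were measured, with medians of -0.07 and 0.00. PCK2, the mitochondrial form of a gluconeogenic enzyme, passed 0.05 in the predicted tumors (0.97, adjusted p = 0.0311), and FBP1, which runs opposite to phosphofructokinase, was -1.66 (adjusted p = 0.203) and -0.69 (adjusted p = 0.537). Its relative FBP2 was -1.58 and -0.95 (adjusted p = 0.0814 and 0.37).

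Among 17 of 19 regulators of glycolysis on the array, HIF1A, the oxygen-sensitive subunit of the hypoxia-inducible factor, was 0.84 higher in the undifferentiated reference tumors (SE 0.12, adjusted p = 0.000359 in limma), under 2-fold and so not called. MLXIP, a glucose-sensing factor, passed 0.05 there as well (0.67, adjusted p = 0.0365), and in the predicted tumors PRKAA1, a subunit of the energy sensor AMPK, did (0.47, adjusted p = 0.0335). EPAS1, a factor related to HIF1A, was 1.22 higher in the reference tumors (adjusted p = 0.128), and PPARGC1A, a driver of mitochondrial genes, was -0.68 and -0.66 (adjusted p = 0.678 and 0.739). The list had a median of 0.25 and 0.07 and 0 calls in both. Of 20 hypoxia response genes outside glycolysis 17 were measured, with medians of 0.12 and 0.54 and 0 calls in either. CA12, a carbonic anhydrase (1.19, adjusted p = 0.0155), and ERO1A, an oxidase of the endoplasmic reticulum (0.92, adjusted p = 0.0107), passed 0.05 in the predicted tumors. CA9, another carbonic anhydrase, had larger changes that did not pass (1.31 and 1.49), and ADM (-0.64) and MXI1 (-0.54) were the lowest in the reference tumors.

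For scale, 10 of 11 measured proliferation genes were called higher in the reference tumors and 8 of 11 in the predicted tumors, with medians of 2.02 and 1.28. The reference classes were set partly by mitotic index, and the predicted classes by markers on these arrays that the study ties largely to cell division, so that this list is independent of neither. RRM2 and CDK1 changed most, by 3.51 and 3.46 in the reference tumors.

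Within the 39 differentiated tumors the 10 genes varied together in part. Of 45 gene pairs 38 had a positive r, with a median of 0.20, and 12 passed an adjusted permutation p of 0.05, 11 of them positive. Such counts were not made for other genes of the array in either class, so that they are not shown to be particular to these 10. The strongest was PFKL with PKM2 (r = 0.67, adjusted p = 0.00045, rho = 0.70, adjusted permutation p = 0.000225), followed by ALDOA with LDHA (r = 0.61, rho = 0.66) and PFKL with ENO1 (r = 0.55, rho = 0.58). After subtraction of the scan session means these were 0.66, 0.57 and 0.60. PFKP went with PFKL (r = 0.51) and SLC2A1 (r = 0.44), and PKM2 with HK1 (r = 0.48) and ENO1 (r = 0.47). The negative pair was HK2 with LDHA (r = -0.46, rho = -0.47), at HK2 probe 1.

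In the 12 undifferentiated tumors 39 of 45 pairs were positive and 2 passed 0.05: HK1 with PKM2 (r = 0.89, adjusted permutation p = 0.0252, rho = 0.80, adjusted permutation p = 0.0929) and SLC2A1 with PKM2 (r = 0.82, adjusted permutation p = 0.0394, rho = 0.71, adjusted permutation p = 0.196). Without the 2 tumors farthest from the median of the first gene these fell to r = 0.60 and 0.47, so that they rested in part on those tumors.

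**Figure D5:**
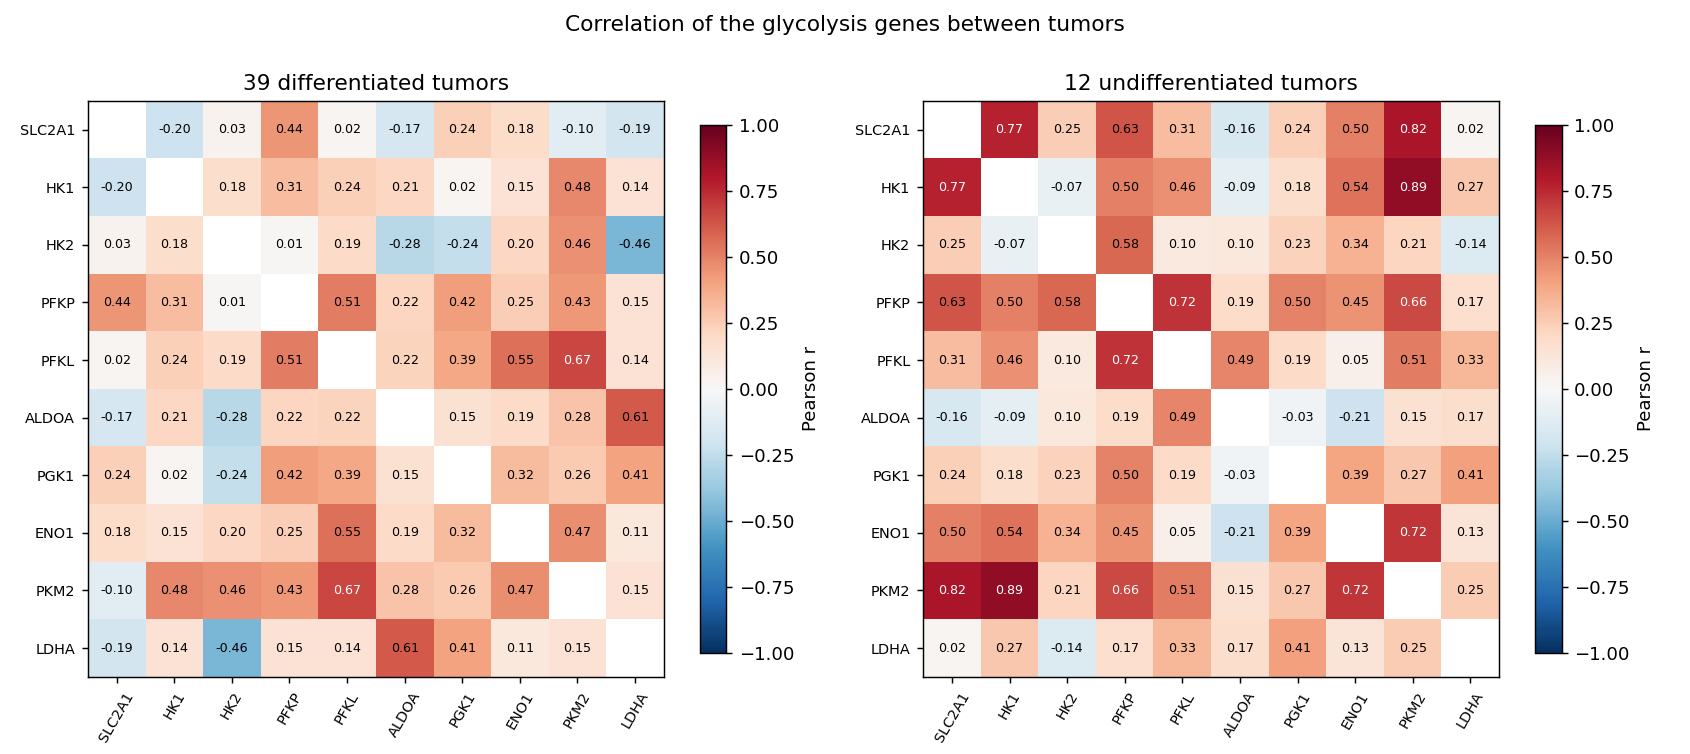
Pearson r (color and number) between the levels of each pair of the 10 genes, across the 39 differentiated tumors, left, and the 12 undifferentiated tumors, right. PFKL with PKM2 is the strongest pair on the left (0.67) and HK1 with PKM2 on the right (0.89).

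The members were then set against the mean standardised level of the hypoxia and proliferation lists, 20 relations per class. In the differentiated tumors the hypoxia list went with PGK1 (r = 0.74, rho = 0.73), PFKL (r = 0.67, rho = 0.63), PKM2 (r = 0.59, rho = 0.47), PFKP (r = 0.53, rho = 0.58) and ENO1 (r = 0.47, rho = 0.49), each past an adjusted permutation p of 0.05. Without the 2 tumors farthest from the median they were 0.68, 0.67, 0.58, 0.51 and 0.36, and with session means subtracted 0.81, 0.80, 0.71, 0.65 and 0.53. No member passed with the proliferation list, where r ran up to 0.31 for SLC2A1. In the 12 undifferentiated tumors 0 of 20 relations passed. Other probes of the array were not set against these lists.

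LDHA went with the mast cell list in the differentiated tumors (r = 0.60, adjusted permutation p = 0.0008, rho = 0.66), and SLC2A1 went against it (r = -0.49, adjusted permutation p = 0.0199, rho = -0.56), in a family of 40 relations with 4 cell type lists that was chosen after the data were seen. In that family 3 passed, the third being SLC2A1 with the keratinocyte list, given above within each set of tumors. HK2 probe 2 was also set against the other members and 3 lists after its values were seen, 12 relations per class. In the 12 undifferentiated tumors 7 of the 12 passed, led by the hypoxia list (r = 0.93, adjusted permutation p = 0.0006, rho = 0.95), with SLC2A1 (r = 0.74, rho = 0.75), PKM2 (r = 0.74, rho = 0.86) and PFKP (r = 0.72, rho = 0.77). Without the 2 tumors farthest from the median, these were 0.86, 0.70, 0.74 and 0.70. The neutrophil list had r = 0.68 with it, and 0.22 without the 2 tumors. In the 39 differentiated tumors none of the 12 passed, and its r with the hypoxia list was 0.15. For neither family were such counts made for other probes of the array.

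Outside the lists, the probes whose levels were most like the mean standardised level of the members over the 39 differentiated tumors were those of CCL1 (r = 0.76), LDB1 (r = 0.70), SLC6A8 (r = 0.69), ZBTB7A (r = 0.68) and IL18BP (r = 0.67), out of 16959 compared. These values are a description and carry no test.

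Sex, age and breed were not past the test for any of the 10 genes. By sex 0 of 10 passed, where 0.0275% of all probes were called; ENO1 was nearest, 0.25 higher in males at an unadjusted p of 0.0264 (adjusted p = 0.80 in limma), and it was the 1 gene of 10 under 0.05 unadjusted, against 5.63% of all probes. By age 0 of 10 passed an adjusted p of 0.05, as did 0 of all probes, and 0 of 10 were under 0.05 unadjusted against 2.71% of all probes. Among differentiated tumors of 7 Boxers and 7 Labrador Retrievers 0 of 10 were called, where 0.0298% of all probes were. SLC2A1 was the 1 gene of 10 under 0.05 unadjusted, against 6.88% of all probes. The Boxers ran from 10.31 over 11.19 to 13.10 and the Labradors from 8.65 over 9.34 to 11.59, a Labrador minus Boxer difference of -1.90 (95% interval -3.37 to -0.44, unadjusted p = 0.0149, adjusted p = 0.633). Above the keratinocyte gap lay 5 of the 7 Boxer tumors and 3 of the 7 Labrador tumors, and the part of this in the difference was not tested.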

How the data were processed

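Total RNA of 51 canine MCTs was hybridized to Agilent Canine V2 4x44k one-color arrays. The authors made the deposited intensity values with Agilent Feature Extraction, as background-subtracted processed signals of each array, and also deposited a table of intensity that they had quantile-normalized. The classes are not in the sample labels and were taken from the study by tumor number, LM0 by elimination. The labels speak of more arrays than tumors; 51 arrays, 1 per tumor, were used here.

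Here log2 processed signals were quantile-normalized without the control spots. Readings marked as feature outliers (from 2 to 35 on an array) were left out, and repeated spots of a probe were averaged. Groups were compared with limma (version 3.58.1, in R 4.3.3), a replacement for the permutation program of the study. Correlations used numpy 2.4.6, and scipy 1.17.1 for ranks, under Python 3.11.15 with 100000 two-sided permutations. The limma comparison of the reference classes was tested on simulated data, and the other steps were not. The p-values measure the spread between tumors of different dogs, and the number of arrays limits the precision. No arrays held identical values. A gene stands for its probe of highest mean level. Of each list the counts, the median, genes of largest change and those past 0.05 are given; some are not reported here. The genes and lists were chosen with earlier results of these data known, and covariates for keratinocyte and neutrophil levels, the correlations with cell type lists and those of HK2 probe 2 were added after the data were seen. Alternatives covered normalization, background, filters, slide, scan session, sex and age, the threshold, the test and each tumor left out.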

Additional observations from a re-analysis of the deposited data

Results flagged for a closer look

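In groups of 4 to 10 tumors, 36 sets of member readings were screened with Dixon's test for a tumor far from the others, and 2 were past its limit; chance flags about 1 in 20 groups. SLC2A1 in T115 read 9.94, far below the other undifferentiated predicted tumors, of which the nearest read 12.90 and the highest 14.92. ALDOA in T49 read 15.02, above the other undifferentiated predicted tumors, of which the nearest read 14.50 and the lowest 14.25.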

How the results depend on the processing

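Among the reference tumors, the count of 1 member probe called became 0 with 75th percentile scaling, normexp background, the authors' normalized table, slide or scan session as a fixed block, sex and age as covariates, the keratinocyte or neutrophil level as a covariate, and the methods' t-test after adjustment. At an adjusted p under 0.05 with no fold limit it was 4, and the count of genes went from 0 to 2. Among the predicted tumors, the 2 called genes and 4 called probes became 0 and 0 with the slide as a fixed block, with sex and age, and with the neutrophil level, 1 and 1 with the scan session as a fixed block, 1 and 2 with the methods' t-test after adjustment, and 5 and 9 at 0.05 with no fold limit. The gene count was 1 with the slide as a random block. Calls over all probes fell as well, from 437 to 85 with the slide as a fixed block, 183 with sex and age, 170 with the scan session and 3 with the neutrophil level, and in the reference tumors from 805 to 54 with the slide and 345 with the scan session, while the neutrophil level gave 1431. In all tumors, the 1 gene and 3 probes became 0 and 0 with the neutrophil level and 6 and 13 at 0.05, and 2 genes were called when probes of 1 gene were averaged. Leaving out 1 tumor at a time gave 0 genes and 0 to 1 probes in the reference tumors, 1 to 2 and 1 to 4 in the predicted tumors, and 1 to 2 and 3 to 4 in all tumors. With the slide as a fixed block the class difference rests on slides that held both classes. These held 2 undifferentiated and 4 differentiated reference tumors, and 6 and 9 predicted tumors. For a fit with sex and age, T132, T53 and T14 lack a stated sex or age. The cause of the lost calls was not tested.

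Directions turned for changes near 0 and, with the neutrophil level as a covariate, also for larger ones such as SLC2A1 in the reference tumors. HK2 in the reference tumors was 0.046 with 75th percentile scaling and 1.04 with its probes averaged, and ran from -0.17 to 0.020 with 1 tumor left out, the highest without LM0. HK1 there was -0.019 with marked background spots left out, and ran from -0.21 without LM0 to 0.39 without T9. With the neutrophil level, reference values were -0.56 for SLC2A1 probe 2, -0.41 for SLC2A1, -0.38 for HK1, -0.072 for PFKP and -0.13 for PFKL, HK2 was -0.052 in the predicted tumors, and HK2 and HK1 were -0.16 and -0.079 in all tumors. With normexp background HK2 in all tumors was -0.0056, and it ran from -0.024 to 0.060 with 1 tumor left out. Without a class term the age slopes were 0.030 for SLC2A1, -0.0011 for HK2, 0.0098 for ALDOA, 0.0091 for ENO1, 0.023 for PKM2 and 0.016 for LDHA. Without the reference or predicted term, the breed differences were -0.013 for HK2 and -0.082 for PFKL. Of the member pairs, 19 passed in place of 12 in the differentiated tumors, and 17 in place of 2 in the undifferentiated tumors, with scan session means subtracted. Some sessions held only 1 undifferentiated tumor, whose value equals the mean subtracted for every gene. The permutations treat such values as free, so that these counts cannot be compared with those of the main fit. No paired analysis was possible because the replicate labels are tumor numbers that no groups share.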
